A study of Mus musculus with 9 samples.

Results

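The expression of 10 genes for cyclins and inhibitors of cyclin-dependent kinases (CDKs) was examined in mouse ESCs that overexpressed a forced E2A homodimer. The genes were taken as a list of names, drawn up with earlier results of these data known. They are the CIP/KIP inhibitors Cdkn1a and Cdkn1b, the INK4 inhibitors Cdkn2a, Cdkn2b and Cdkn2c, the D-type cyclins Ccnd1, Ccnd2 and Ccnd3, and the E-type cyclins Ccne1 and Ccne2. They are 10 of the 47729 genes with an expression value, and all 10 were among the 17951 genes abundant enough to be tested. RNA-seq was performed on a line of ESCs, pluripotent cells of the early embryo, in which dox drives a transgene upstream of Hprt. The transgene encodes a FLAG-tagged mouse E47, a splice product of the E2A gene Tcf3, fused through a flexible linker to another E47. LIF/serum was used throughout, and cells were taken without dox (0 h) or after 18 h or 24 h in dox at 1 µg/ml, with 3 biological replicates per time point. The 0 h cells carried the same transgene, the libraries are of 1 inducible line, and dox-treated cells without the transgene were not analysed here. Titles and treatment entries of the samples give 18 h and 24 h, whereas the treatment protocol text speaks of 24 h and 48 h, and the former times were used.

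Progress through the G1 phase is driven by kinases that need a cyclin to be active. D-type cyclins activate CDK4 and CDK6, E-type cyclins activate CDK2, and together these kinases phosphorylate the retinoblastoma protein, so that E2F factors can switch on the genes of DNA replication. INK4 inhibitors bind CDK4 and CDK6, whereas CIP/KIP inhibitors bind complexes of cyclin and kinase, above all those of CDK2. Mouse ESCs are known for a short G1 phase, with abundant E-type cyclins and little of most inhibitors. E2A proteins bind DNA at E-boxes, the motif CANNTG, and Cdkn1a is a known target of E2A in other cells.

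Between 22028363 and 26471569 reads per library fell on the 19210 genes that the authors kept after filtering. Expression is given in FPKM, the fragments counted on a gene scaled to its exon length and to the depth of the library. All of the 10 genes but Ccnd2 and Cdkn2c were above 1 FPKM in every library. Tcf3, which also takes up the reads of the mouse transgene, stood at 39.1±1.80 FPKM before dox (mean±s.d., n=3), at 110.1±5.52 after 18 h and at 102±7.55 after 24 h, and it was higher in every library with dox than in every library without. All 8 ESC markers examined had a mean of at least 1 FPKM at each time point, with sums of 1299 to 1975 FPKM before dox, 1018 to 1614 FPKM after 18 h and 974 to 1586 FPKM after 24 h. Of these markers limma called Tdgf1 lower at both times (log2 fold-change -1.27 and -1.46), and at 24 h Pou5f1 lower (-0.58) and Nanog higher (0.86). Libraries that share a replicate number resembled each other, and replicate 1 had the highest level of the ESC marker Dppa5a at each time point. Markers of other cells were also present. Neural progenitor markers summed to 77.1 to 79.9 FPKM at 0 h, 107.9 to 113 at 18 h and 110 to 117 at 24 h, and Sox1 was called higher at 24 h (log2 fold-change 2.505, limma adjusted p = 0.00496). With the block 3 of the 4 tested neural markers were called higher at both times. Trophoblast markers summed to 163 to 188, 298 to 352 and 279 to 349 FPKM, mostly from Krt18, with Cdx2 and Hand1 also called higher at both times, and fibroblast markers to 27.1 to 57.2, 43.4 to 93.1 and 45.02 to 86.2 FPKM, mostly from Acta2. Acta2 itself was called with the block and not without it, and at 24 h limma called the fibroblast markers Pdgfrb higher (log2 fold-change 1.10) and Thy1 lower (-0.74). With the block the fibroblast marker Dcn was also called lower at 24 h (-0.57, limma adjusted p = 0.0389). Primitive endoderm markers summed to 4.17 to 6.14 FPKM over all libraries. The part of these cell types in the results was not tested. In bulk RNA, fewer cells of a type and less RNA per cell cannot be told apart.

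Before dox, the level per length ran over a wide range. Ccne1 was the most abundant gene of the 10 at 71.4 FPKM, followed by Ccnd1 at 28.1 and Cdkn1a at 28.1, whose libraries overlapped. Ccnd3 came next at 14.2 FPKM. Ccne2 at 8.61 and Cdkn1b at 6.94 also overlapped, and below them stood Cdkn2a at 4.86, Cdkn2b at 3.09, Ccnd2 at 0.604 and Cdkn2c at 0.183 FPKM. After dox the order changed in its upper part, with Cdkn1a above Ccnd1 in every 18 h and every 24 h library, as it already was in replicate 3 before dox. At 24 h Ccnd1 and Ccnd3 overlapped, as did Cdkn1b and Ccne2.

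**Figure D1:**
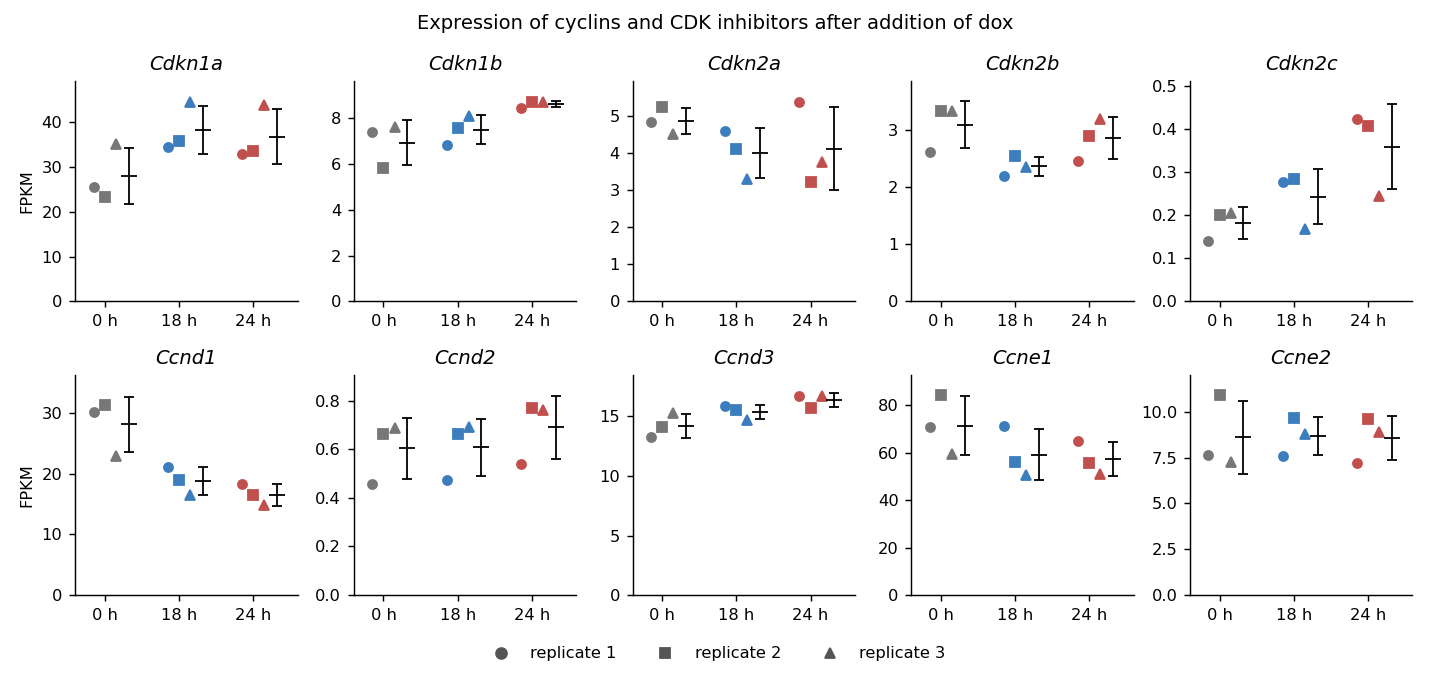
FPKM of each of the 10 genes by time after addition of dox, with 1 point per library (the shape gives the replicate number) and the mean±s.d. of 3 libraries beside the points. Each panel has its own axis from 0. All Ccnd1 points at 18 h and 24 h lie below the lowest 0 h point of 22.9 FPKM, whereas the Cdkn1a point of replicate 3 at 0 h, at 35.2 FPKM, lies within the range of the later points.

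Changes were tested with limma on log2(FPKM+0.1) over all 17951 genes, with Benjamini-Hochberg adjustment and a gene called at an adjusted p of at most 0.05. In this fit, which leaves out the pairing of replicates, Ccnd1 was downregulated at both times and was the only gene of the 10 to be called. That is 1 of 10 in the lower direction, where the share of all genes called lower was 3.72% at 18 h and 5.11% at 24 h. No gene of the 10 was called higher by limma in this fit at either time, against 4.27% and 6.52% of all genes. Without adjustment, p was under 0.05 for 1 higher and 2 lower genes at 18 h, against 13.2% and 12.3% of all genes, and for 4 higher and 1 lower at 24 h, against 15% and 13.2%. edgeR on reads recovered from the deposited values called no gene higher at either time, against 5.78% and 7.94% of all genes, and DESeq2 called 1 (Cdkn1a) at 18 h and none at 24 h, against 6.72% and 8.77%. The replicate numbers pair the libraries. With the number as a block limma called 1 higher (Cdkn1a) and 2 lower (Ccnd1 and Cdkn2b) at 18 h. The shares of all genes were 10.8% and 10.7%. At 24 h it called 2 higher (Cdkn1a and Cdkn1b) and 1 lower (Ccnd1), against 13.6% and 12.5% of all genes. edgeR with the block called 1 higher and 2 lower at 18 h, against 13.9% and 13.1% of all genes, and 4 higher and 2 lower at 24 h, against 16.4% and 14.9%. None of the 10 was called with a change of at least 2-fold, which held for 2.06% of all genes at 18 h and 2.9% at 24 h. The median log2 fold-change of the 10 genes was 0.02 at 18 h and 0.09 at 24 h, beside -0.003 and 0.004 over all genes.

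**Figure D2:**
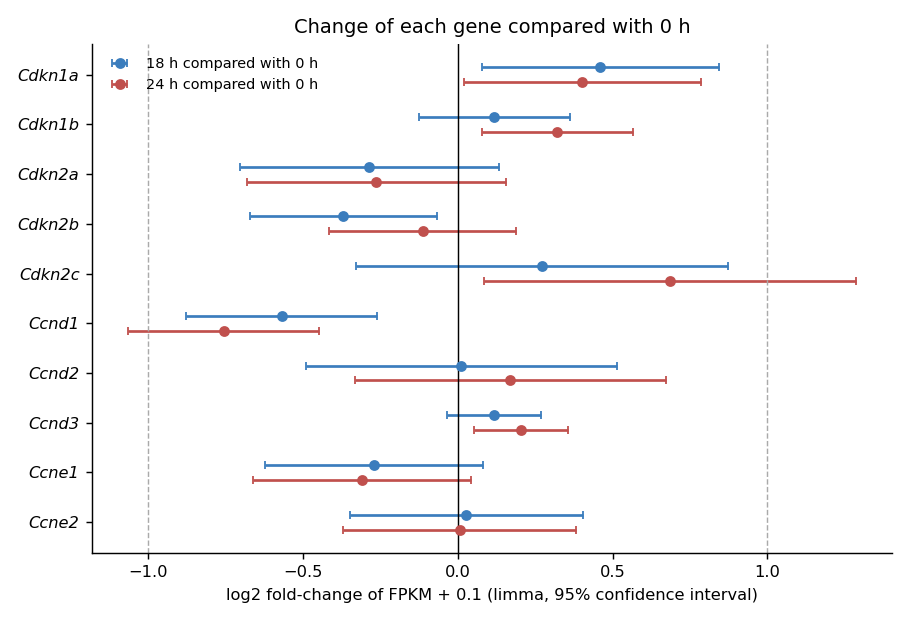
Log2 fold-change of FPKM+0.1 at 18 h (blue) and 24 h (red) compared with 0 h for each gene, from limma, with 95% confidence intervals. Dashed lines mark 2-fold changes. Ccnd1 lies at -0.57 and -0.76, Cdkn1a at 0.46 and 0.40, and the intervals of both exclude 0 before adjustment over all genes.

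The change called without the block was in the D-type cyclins. Ccnd1 (ENSMUSG00000070348; GRCm38 chromosome 7, 144929931 to 144939925, minus strand, 5 exons) encodes cyclin D1, which couples growth factor signals to CDK4 and CDK6. Its level in replicates 1, 2 and 3 was 30.1, 31.4 and 22.9 FPKM before dox, 21.1, 19.0 and 16.5 FPKM after 18 h and 18.4, 16.4 and 14.8 FPKM after 24 h. The 0 h libraries lay above all others, and within each replicate number the level was lower at 18 h than at 0 h and lower again at 24 h. The mean went from 28.1±4.55 to 18.8±2.30 and 16.5±1.79 FPKM, so that it fell by 33.0% and by 41.3%. This was a log2 fold-change of -0.57 at 18 h (standard error 0.137, limma adjusted p = 0.0374) and -0.76 at 24 h (standard error 0.137, limma adjusted p = 0.0104). At 24 h the call held in all 17 alternative analyses, with log2 fold-changes from -0.90 to -0.67 and adjusted p from 9.38e-09 to 0.0479.

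The 18 h call of Ccnd1 was less secure. Leaving out replicate 1 or 2 at 0 h gave adjusted p = 0.1195 and 0.0828 by limma, and leaving out replicate 2 or 3 at 18 h gave 0.1055 and 0.1296. It was also lost without a filter on low genes (0.0642) and with only the compared time points in the fit (0.0826), within a range of 5.55e-07 to 0.1296 over the 17 alternatives.

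Exons of Ccnd1 overlap those of Oraov1 (also called LTO1) on the opposite strand. How the strand entered the counting is not given in the sources used here, and a read that both genes claim could be counted on either. Oraov1 was at 1.996±0.184 FPKM before dox, 3.01±0.0840 FPKM after 18 h and 2.68±0.0799 FPKM after 24 h. It was upregulated (log2 fold-change 0.57, limma adjusted p = 0.0105 at 18 h and 0.41, adjusted p = 0.0294 at 24 h, the latter lost in 8 of 17 alternatives), in the direction opposite to Ccnd1. Over the 9 libraries, the genes whose log2 FPKM ran most like that of Ccnd1, among 11893 with a mean of at least 1 FPKM, were Nmd3 (Pearson's r 0.994), Ltv1 (0.989) and Jarid2 (0.985). These values describe libraries that share time points and replicate numbers. Nmd3 and Ltv1 encode factors of ribosome assembly and export, and Jarid2 encodes a partner of the Polycomb repressive complex.

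Ccnd3 (ENSMUSG00000034165; chromosome 17, 47505051 to 47599691, plus strand, 8 exons), which encodes cyclin D3, was not downregulated. It was at 13.2, 14.1 and 15.3 FPKM before dox, 15.9, 15.5 and 14.7 FPKM after 18 h and 16.7, 15.7 and 16.7 FPKM after 24 h. The 24 h libraries lay above all 0 h libraries by a small margin. At 24 h the log2 fold-change was 0.20 (standard error 0.0676, limma adjusted p = 0.0827, or 0.0547 when blocked on the replicate number). This p ranged from 0.0127 to 0.235 over the alternatives and passed the threshold in 2 of 17, edgeR with the block and the fit without replicate 3 at 0 h (0.0473). Bysl, which overlaps it on the other strand, was at 29.96, 31.9 and 28.5 FPKM on average at the 3 time points.

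Ccnd2 (ENSMUSG00000000184; chromosome 6, 127125162 to 127152193, minus strand, 7 exons), for cyclin D2, was the rarest cyclin of the 5. Its level was 0.459, 0.664 and 0.689 FPKM before dox, 0.474, 0.661 and 0.690 FPKM after 18 h and 0.540, 0.771 and 0.761 FPKM after 24 h. It followed the replicate number more than the time, and replicate 1 was the lowest at each. The 95% interval of its log2 fold-change at 24 h ran from -0.33 to 0.67, so that a fall of the size seen in Ccnd1 was outside it.

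The make-up of the D-type transcripts shifted accordingly. The 3 genes together summed to 43.0±3.69 FPKM before dox, 34.8±2.78 FPKM after 18 h and 33.6±1.76 FPKM after 24 h. Ccnd1 supplied 68.8%, 68.0% and 59.0% of this sum in replicates 1, 2 and 3 before dox, 56.3%, 54.0% and 51.7% after 18 h and 51.6%, 49.95% and 45.9% after 24 h. Its share was lower in each later library than in each 0 h library, and the Ccnd1 to Ccnd3 ratio went from 2.002±0.434 before dox to 1.22±0.104 after 18 h and 1.01±0.112 after 24 h. Ccnd2 supplied 2.36% of the sum or less in all libraries.

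**Figure D3:**
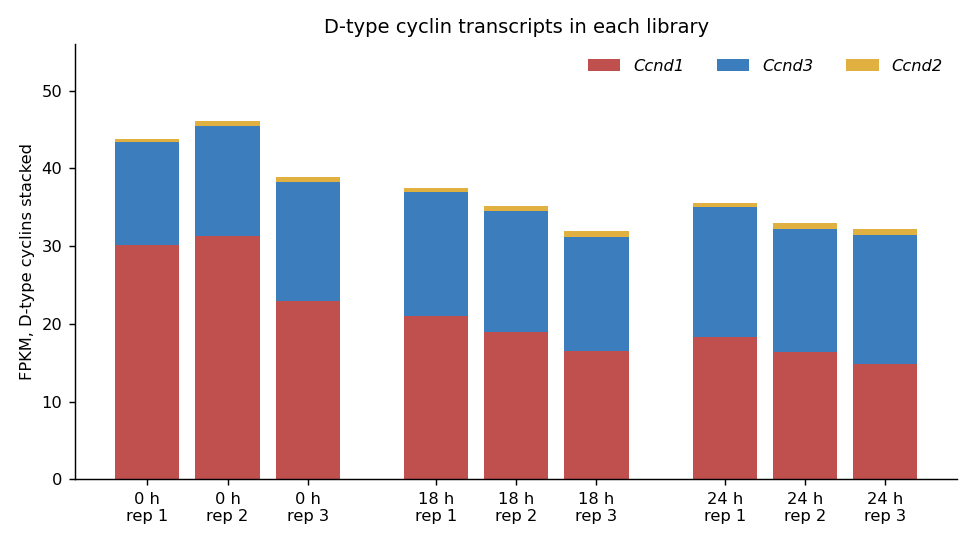
FPKM of the 3 D-type cyclins stacked for each of the 9 libraries. Ccnd1 (red) shrinks from 22.9 to 31.4 FPKM at 0 h to 14.8 to 18.4 FPKM at 24 h, Ccnd3 (blue) stays between 13.2 and 16.7 FPKM throughout, and Ccnd2 (yellow) is below 1 FPKM.

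E-type cyclins, which activate CDK2 at the entry into S phase, were not called by limma at either time. Ccne1 (ENSMUSG00000002068; chromosome 7, 38097984 to 38107534, minus strand, 11 exons), for cyclin E1, was at 70.8, 84.1 and 59.3 FPKM before dox, 71.0, 56.1 and 50.4 FPKM after 18 h and 65.1, 55.6 and 51.1 FPKM after 24 h. The groups overlapped, although at 24 h each library was below the 0 h library of its own number. The log2 fold-change was -0.27 at 18 h (limma adjusted p = 0.318) and -0.31 at 24 h (standard error 0.157, adjusted p = 0.230). edgeR with the block, added after the data were seen, gave adjusted p = 0.0110 and 0.00294, at the low end of ranges that reached 0.639 and 0.492 over the alternatives.

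Ccne2 (ENSMUSG00000028212; chromosome 4, 11191351 to 11204779, plus strand, 13 exons), for cyclin E2, was at 7.64, 10.9 and 7.28 FPKM before dox, 7.60, 9.64 and 8.78 FPKM after 18 h and 7.22, 9.60 and 8.88 FPKM after 24 h. The means, 8.61±1.999, 8.67±1.03 and 8.56±1.22 FPKM, differed by less than the spread between replicates. With a log2 fold-change at 24 h of 0.01, the 95% interval ran from -0.37 to 0.38. Exons of Ints8 overlap Ccne2 on the other strand, and Ints8 was of similar abundance at 10.4 FPKM at 0 h and 12.5 FPKM at 24 h. Ccne1 supplied 89.3% of the E-type sum at 0 h and 86.8% at 24 h.

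Among the CIP/KIP inhibitors, Cdkn1a (ENSMUSG00000023067; chromosome 17, 29090976 to 29100727, plus strand, 4 exons) encodes p21, an inhibitor of CDK2 that p53 and other factors induce. Its level was 25.6, 23.4 and 35.2 FPKM before dox, 34.5, 35.8 and 44.5 FPKM after 18 h and 33.0, 33.6 and 44.0 FPKM after 24 h. Replicate 3 was the highest at each time point, and its 0 h library reached into the range of the others, so the groups overlapped. Within each replicate number the dox-treated library was the higher one, by 35.0%, 53.1% and 26.5% after 18 h and by 28.8%, 43.7% and 25.1% after 24 h. In the fit without pairing this was a log2 fold-change of 0.46 at 18 h (standard error 0.170, limma adjusted p = 0.131) and 0.40 at 24 h (standard error 0.170, limma adjusted p = 0.160). With the replicate number as a block these became adjusted p = 0.00255 and 0.00314 by limma. Over the 17 alternatives of each, the adjusted p ranged from 1.15e-05 to 0.341 at 18 h and from 4.76e-05 to 0.415 at 24 h and passed the threshold in 3. Leaving out replicate 3 at 0 h gave a log2 fold-change of 0.58 at 24 h with limma adjusted p = 0.0499. The ratio of Cdkn1a to Ccnd1 in FPKM was 1.04±0.428 at 0 h, 2.07±0.555 at 18 h and 2.27±0.623 at 24 h.

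**Figure D4:**
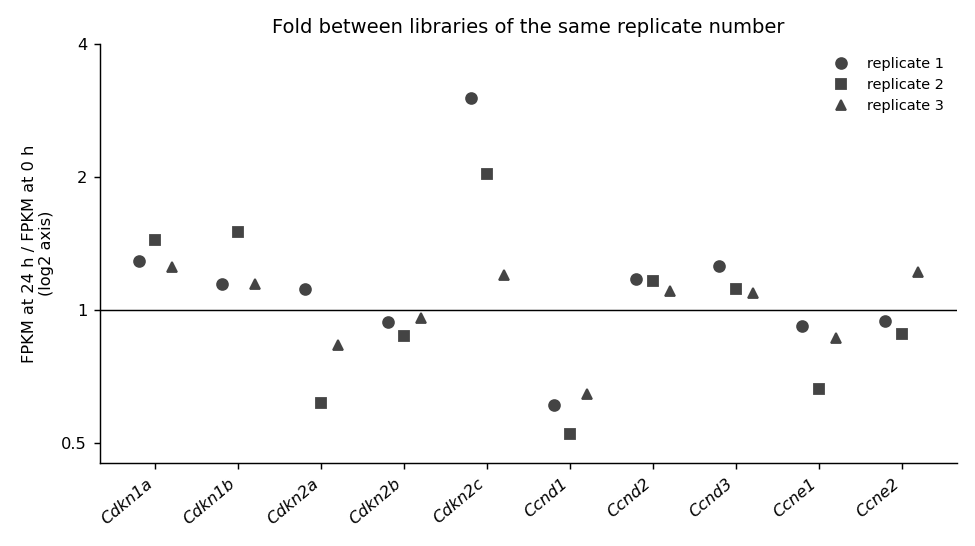
FPKM at 24 h divided by FPKM at 0 h for libraries of the same replicate number, on a log2 axis, with 1 point per replicate number. All 3 Cdkn1a points lie above 1, from 1.251 to 1.44, and all 3 Ccnd1 points lie below it, from 0.524 to 0.645. Cdkn2a and Ccne2 have points on both sides.

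Promoter sequence was examined because E-boxes are what E2A binds. RefSeq promoters of GRCm38.p6, each 250 bases before to 50 after a start, were listed for Cdkn1a, Cdkn1b, Cdkn2a, Cdkn2b, Cdkn2c, Ccnd3 and Ccne1. None was listed for Ccnd1, Ccnd2 and Ccne2, so the promoter of Ccnd1 was not examined. The listed promoters of Cdkn1b, Cdkn2a, Ccnd3 and Ccne1 and the first of Cdkn2c held no CANNTG. The motif CANNTG, which reads the same on both strands, was present in 72.3% of all 32851 such promoters. CAGGTG or its reverse CACCTG was present in 20.2% and CAGCTG in 16.3%, and each of these is also a CANNTG. Both listed promoters of Cdkn1a held CANNTG, with CAGCTG beginning 37 bases after the start of the first, and CAGGTG 187 and CAACTG 4 bases before the start of the other. The windows below show these E-boxes in capitals, 5′ to 3′ on the strand of the gene, beside the only other matches in the listed promoters, those of Cdkn2b and of the second promoter of Cdkn2c.
Cdkn1a, first promoter, chr17:29090999-29091028, plus strand: tgatgatacccaactacCAGCTGtggggtg
Cdkn1a, second promoter, chr17:29093570-29093599, plus strand: aagagaatagccCAGGTGtgggggagggga
Cdkn1a, second promoter, chr17:29093753-29093782, plus strand: gcagctcgacgcCAACTGcagcagccgaga
Cdkn2b, chr4:89311052-89311081, minus strand: tcatgacgtcacCAAGTGtgggggaggggt
Cdkn2c, second promoter, chr4:109665323-109665352, minus strand: ttttgctgaataatCACGTGtgaatcgagg
A match of these letters is a description of the sequence, and binding of E2A was not measured in these libraries.

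Cdkn1b (ENSMUSG00000003031; chromosome 6, 134920401 to 134925513, plus strand, 2 exons) encodes p27, an inhibitor controlled in large part through the stability of its protein. It was at 7.40, 5.81 and 7.61 FPKM before dox, 6.84, 7.56 and 8.11 FPKM after 18 h and 8.47, 8.72 and 8.70 FPKM after 24 h. The 24 h libraries were close to each other and above all libraries of 0 h and 18 h. The 24 h mean was 24.4% above the 0 h mean, a log2 fold-change of 0.32 (standard error 0.108, limma adjusted p = 0.0881, or 0.0490 when blocked on the replicate number). This p ranged from 0.00723 to 0.206 over the alternatives. At 18 h the log2 fold-change was 0.12 (limma adjusted p = 0.539). Cdkn1a supplied 80.0% of the sum of Cdkn1a and Cdkn1b at 0 h, 83.5% at 18 h and 80.8% at 24 h. Cdkn1c, the other CIP/KIP gene, is not in this sum and was at 5.46, 5.23 and 5.59 FPKM on average at the 3 time points.

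The INK4 genes Cdkn2a, Cdkn2b and Cdkn2c, without Cdkn2d, the gene of INK4D, had a sum of 8.13±0.583 FPKM before dox, 6.60±0.697 FPKM after 18 h and 7.32±0.877 FPKM after 24 h. Cdkn2a (ENSMUSG00000044303; chromosome 4, 89274471 to 89294653, minus strand, 4 exons) encodes both the inhibitor INK4A and, in another reading frame, the p53 activator ARF, which a value per gene cannot separate. It was at 4.83, 5.23 and 4.51 FPKM before dox, 4.59, 4.11 and 3.28 FPKM after 18 h and 5.37, 3.21 and 3.76 FPKM after 24 h. Replicate 1 at 24 h was the highest of all 9 libraries, and the groups overlapped. The log2 fold-changes were -0.29 at 18 h (limma adjusted p = 0.374) and -0.26 at 24 h (limma adjusted p = 0.387).

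Cdkn2b (ENSMUSG00000073802; chromosome 4, 89306299 to 89311039, minus strand, 2 exons), the neighbour of Cdkn2a, encodes INK4B, an inhibitor known to respond to TGFβ. It was at 2.62, 3.32 and 3.33 FPKM before dox, 2.20, 2.53 and 2.34 FPKM after 18 h and 2.46, 2.90 and 3.19 FPKM after 24 h. All 18 h libraries were below all 0 h libraries, and the 24 h libraries overlapped both. At 18 h the log2 fold-change was -0.37 (standard error 0.134, limma adjusted p = 0.125, or 0.0219 when blocked on the replicate number), with a range of adjusted p from 0.0219 to 0.260 over the alternatives. edgeR with the block did not call it (adjusted p = 0.0575). At 24 h the log2 fold-change was -0.11 (limma adjusted p = 0.621).

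Cdkn2c (ENSMUSG00000028551; chromosome 4, 109660876 to 109667189, minus strand, 3 exons), for INK4C, was close to the limit of detection. Its reads numbered 9, 13 and 12 before dox, 17, 19 and 11 after 18 h and 29, 28 and 18 after 24 h, which is 0.140, 0.202 and 0.205 FPKM, 0.277, 0.284 and 0.169 FPKM, and 0.425, 0.409 and 0.246 FPKM. Each 24 h library was above each 0 h library. The log2 fold-change at 24 h was 0.69 (standard error 0.266, limma adjusted p = 0.130), which the added 0.1 FPKM makes smaller than the change in FPKM. With edgeR and the block it was 0.96 (adjusted p = 0.0341, within a range of 0.0341 to 0.303 over the alternatives).

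Counted by libraries, 2 of the 10 genes did not overlap between 18 h and 0 h (Ccnd1 and Cdkn2b, both lower), where 28.1% of all genes did not. Between 24 h and 0 h this held for 4 of the 10 (Ccnd1 lower, Cdkn1b, Cdkn2c and Ccnd3 higher), against 31.3% of all genes.

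Between 24 h and 18 h no gene of the 10 was distinguishable. limma gave adjusted p from 0.935 to 1.00, none had an unadjusted p under 0.05 (5.59% of all genes did), and edgeR and DESeq2 called none, where limma, edgeR and DESeq2 called 0.0223%, 0% and 0.198% of all genes. Ccnd1 had a log2 fold-change of -0.19 (95% interval -0.49 to 0.12) and Cdkn1a one of -0.06 (-0.44 to 0.32). Cdkn1b was the gene whose libraries did not overlap, with all 3 higher at 24 h, which was so in either direction for 12.9% of all genes.

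The kinases that these cyclins and inhibitors act on were not called by limma without the block. Cdk4 was at 165, 159 and 154 FPKM at 0 h and 148, 132 and 137 FPKM at 24 h. Its log2 fold-change was -0.12 at 18 h (limma adjusted p = 0.240, or 0.0480 when blocked on the replicate number). At 24 h it was -0.20 (limma adjusted p = 0.0626, or 0.00762 with the block). All Cdk4 libraries at 18 h and 24 h were below all 0 h libraries. Groups did not overlap, in either direction, for 28.1% and 31.3% of all genes. Cdk2 and Cdk6 had log2 fold-changes of -0.03 and -0.10 at 24 h (adjusted p = 0.721 and 0.780 by limma). Rb1, which encodes the retinoblastoma protein, was upregulated from 2.19, 2.47 and 2.83 FPKM to 3.05, 3.88 and 3.76 at 18 h and 3.59, 4.07 and 3.71 at 24 h. Its log2 fold-change was 0.50 at 18 h (limma adjusted p = 0.0457) and 0.59 at 24 h (adjusted p = 0.0208), and the calls held in 8 and 14 of 17 alternatives. E2f2, for an E2F activator, was upregulated from 1.40, 1.66 and 1.44 FPKM to 3.23, 2.51 and 2.83 at 18 h and 3.10, 3.22 and 3.13 at 24 h. Its log2 fold-change was 0.88 at 18 h (limma adjusted p = 0.00397) and 1.03 at 24 h (adjusted p = 0.00147), and both calls held in all 17 alternatives. The other 9 E2F and DP genes were not called at either time without the block, and with it E2f7 was called higher at 18 h (log2 fold-change 0.29, limma adjusted p = 0.115, or 0.0398 with the block).

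Over a list of 59 other cell cycle genes, 58 could be tested. At 18 h limma called 3 higher (Rb1, E2f2 and Top2a, a DNA topoisomerase) and 1 lower (Cdt1, a licensing factor of replication origins), where 4.27% and 3.72% of all genes were called. At 24 h it called 4 higher, now with Cdkn2d, and 8 lower, against 6.52% and 5.11% of all genes, with a median log2 fold-change of -0.04 over the list. With the replicate number as a block the counts were 8 higher and 10 lower at 18 h, against 10.8% and 10.7% of all genes, and 5 higher and 12 lower at 24 h, against 13.6% and 12.5%. The Top2a calls held in 9 and 8 of 17 alternatives. Of the 8, 6 were replication genes out of 14 on the list (Mcm2, Mcm3, Mcm5 and Mcm7 of the replicative helicase, Cdt1, and Rrm2 of ribonucleotide reductase), with log2 fold-changes from -0.42 for Cdt1 to -0.21 for Mcm5. Of the same 14, Cdc6, a loader of the helicase, was at 0.34 on the log2 scale at 24 h (limma adjusted p = 0.0503, or 0.0315 with the block). The other genes of the 8 called lower were Ccnb1, the mitotic cyclin B1, at -0.34 and Cks1b, a kinase subunit needed for the turnover of p27, at -0.31. Cdkn2d was at 7.39, 7.34 and 8.21 FPKM at 0 h and 10.4, 9.40 and 9.74 at 24 h (log2 fold-change 0.36, limma adjusted p = 0.0173), a call that held in 13 of 17 alternatives and was lost by edgeR (0.0528).

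The count of these falls varied with the analysis. With the block all 8 genes were called, with limma adjusted p from 0.00165 to 0.00673, and the count rose to 12, or to 14 by edgeR with the block. The count of 8 became 1 with quantile normalization or with only the compared time points in the fit, 0 without replicate 1 at 0 h or without replicate 2 or 3 at 24 h, and 5 without replicate 2 or 3 at 0 h.

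**Figure D5:**
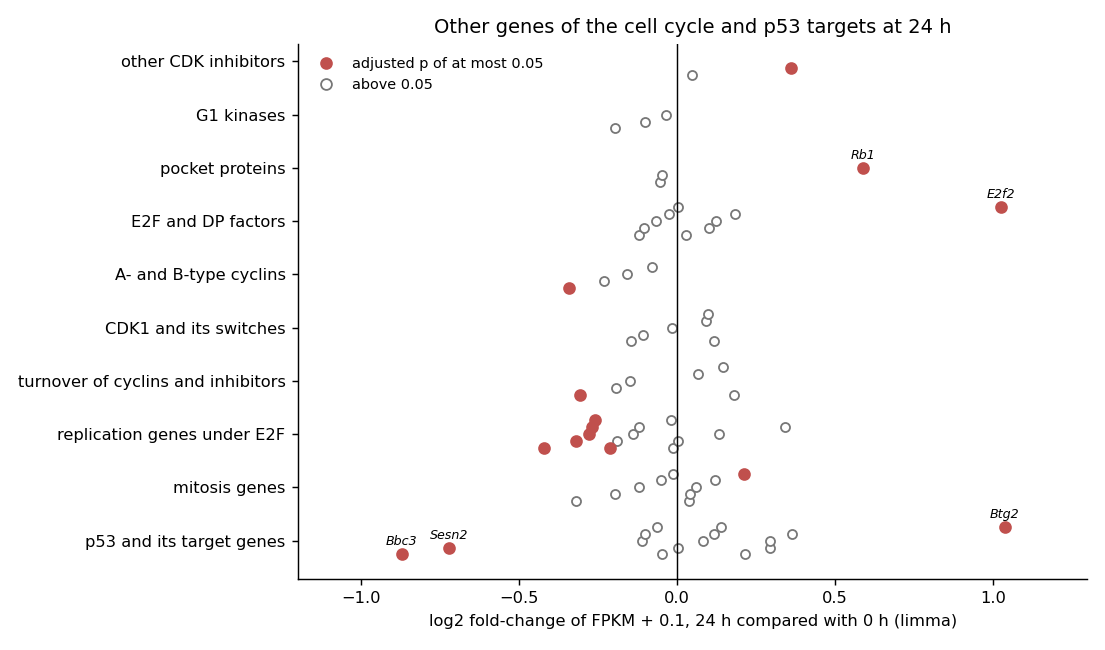
Log2 fold-change of FPKM+0.1 at 24 h compared with 0 h, from limma, for each tested gene among the other cell cycle genes and p53 with its targets, with 1 row per group of genes. Filled points have an adjusted p of at most 0.05. E2f2 at 1.03 and Rb1 at 0.59 lie far to the right of their groups, 6 filled replication genes lie between -0.42 and -0.21, and Btg2 and Bbc3 lie on opposite sides of 0.

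Since p53 is a known activator of Cdkn1a, 15 genes of p53 and its targets were listed beside it. Trp53 itself was at log2 fold-changes of 0.07 at 18 h and 0.004 at 24 h (limma adjusted p = 0.379 and 0.971). Mdm2, a sensitive target, was at 0.15 and -0.10 (limma adjusted p = 0.533 and 0.665), and edgeR with the block gave adjusted p = 0.0387 at 18 h. At 18 h limma called 3 of the 15 higher (Btg2, Aen and Eda2r) and 1 lower (Bbc3), against 4.27% and 3.72% of all genes, and the median log2 fold-change of the list was 0.28. At 24 h it called 1 higher (Btg2) and 2 lower (Bbc3 and Sesn2), against 6.52% and 5.11%, with a median of 0.08. With the replicate number as a block 8 were called higher and 1 lower at 18 h, against 10.8% and 10.7% of all genes, and 4 higher and 2 lower at 24 h, against 13.6% and 12.5%. Of the calls without the block, those at 18 h held in 12 of 17 alternatives for Aen, 9 for Eda2r and 11 for Bbc3, and that of Sesn2 at 24 h held in 9. Btg2, which encodes an antiproliferative protein and has other inducers than p53, went from 16.6, 16.5 and 25.6 FPKM at 0 h to 37.8, 36.1 and 41.6 at 18 h and 36.3, 38.3 and 44.1 at 24 h. Its log2 fold-change was 1.00 at 18 h (limma adjusted p = 0.00797) and 1.04 at 24 h (adjusted p = 0.00554), called in all 17 alternatives of each. Bbc3, the gene of the apoptosis inducer PUMA, was at 31.0, 21.4 and 36.9 FPKM at 0 h and 16.6, 14.9 and 16.1 at 24 h (log2 fold-change -0.87, limma adjusted p = 0.0119), a call lost only without replicate 2 at 24 h (0.0527). Ccng1, for cyclin G1, had log2 fold-changes of 0.51 and 0.36, with adjusted p = 0.0887 and 0.178 by limma and 0.000666 and 0.00145 with the block.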

How the data were processed

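RNA-seq libraries of inducible mouse ESCs without dox and after 18 h and 24 h in dox (n=3 each) were compared. The authors made stranded mRNA libraries, sequenced on the HiSeq4000, used STAR for alignment to GRCm38 and tested with edgeR 3.16.5. Their processing notes also name cutadapt 1.9. The counting program and its strand setting are not given in the sources used here. The authors deposited FPKM values for 47729 genes, and a filtered table of 19210 genes whose signal per library is a CPM after scaling by effective library size. The log2 fold-changes and p-values of the authors' own comparisons in that table were not used. Dividing its values by what 1 read was worth gave whole reads for 100% of values within a tolerance of 0.01.

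Main test: limma 3.58.1 (lmFit, eBayes with trend; R 4.3.3) on log2(FPKM+0.1), genes with mean FPKM of at least 0.1, all 9 libraries, no block. A fold-change on this scale understates that of low genes. The study used edgeR on counts; edgeR 4.0.16 and DESeq2 1.42.0 were run on the recovered reads as alternatives. Other alternatives were pseudocounts of 1 and 0.01, no filter, a filter at mean FPKM 1, quantile normalization, median centring, only the compared time points, a replicate block, the 2-fold rule and leaving out each library. edgeR with the block was added after seeing the data. Deviations from the time point means correlated with Pearson's r of 0.211 to 0.548 in all 9 pairs of libraries with the same replicate number and -0.399 to 0.11 in the 18 others, over 11893 genes, so the numbers were taken as pairs. Replicates of a time point differed by more than sampling noise (chi-square over degrees of freedom 5.79 to 17.8). The scripts were tested on simulated data without pairing of replicates, in which 50 genes per fold were changed at 24 h. limma called 0% of those changed 1.25-fold, 58% at 1.5-fold and 88% at 2-fold. edgeR called 8%, 86% and 98%. A gene that was not called may therefore have changed by a small amount.

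The members and the gene lists were chosen with earlier results of these data known. Named are the 10 members, listed genes that were called or are partners of a member, Tcf3, and for each member called at 24 h the 3 genes most like it; the cell type markers, Trp53, Mdm2, Ccng1, Cdc6, E2f7 and the overlapping genes named beside them were chosen after their values were seen. Coordinates, strands and exons merged over transcripts come from GENCODE M21 (GRCm38).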

Additional observations from a re-analysis of the deposited data

How the results depend on the processing

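Over the 10 genes, 3 comparisons and all settings that refit the libraries, 299 of 323 values kept their direction and side of the threshold, 12 newly passed it and 2 lost it; without single libraries this held for 154 of 180, with 2 newly passing and 4 losing it. In the main analysis only Ccnd1 at 18 h and at 24 h was called, so most values kept their side by staying uncalled. All the losses were of Ccnd1 at 18 h. Counts of the 10 genes called were as follows. At 18 h, higher (0 in the main analysis) became 1 with the replicate block, DESeq2 or edgeR with the block; lower (1) became 0 with no filter, only the compared time points or the 2-fold rule, 2 with the block or edgeR with the block, and 0 to 1 without single libraries. At 24 h, higher (0) became 2 with the block, 4 with edgeR with the block and 0 to 2 without single libraries; lower (1) became 2 with edgeR with the block and 0 with the 2-fold rule. For other cell cycle genes at 18 h, higher (3) became 1 with no filter, median centring or only the compared time points, 5 with mean FPKM of at least 1, quantile normalization or DESeq2, 8 with the block, 10 with edgeR with the block, 0 with the 2-fold rule and 1 to 5 without single libraries; lower (1) became 3 with mean FPKM of at least 1 or edgeR, 2 with median centring, 4 with DESeq2, 10 with the block, 12 with edgeR with the block, 0 with the 2-fold rule and 0 to 2 without single libraries. At 24 h, higher (4) became 5 with the block, 1 with the 2-fold rule and 1 to 6 without single libraries. Over the other settings it ranged from 1 to 6, and not every smaller move is listed. Lower (8) became 5 with no filter and 1 with quantile normalization or only the compared time points. It became 12 with the block, 14 with edgeR with the block, 0 with the 2-fold rule and 0 to 8 without single libraries. For p53 and its targets at 24 h, higher (1) became 4 with the block or edgeR with the block; lower (2) became 1 with no filter, quantile normalization or only the compared time points, 0 with the 2-fold rule and 0 to 2 without single libraries. Log2 fold-changes near 0 turned sign. For Ccne2 at 24 h against 0 h the value was -0.0115 with quantile normalization, -0.0703 with median centring, -0.0143 with edgeR, -0.0210 with DESeq2 and -0.00714 with edgeR and the block; at 18 h it was -0.00932 with median centring. For Ccnd2 at 18 h it was -0.000647 with quantile normalization and -0.0256 with median centring, and for Cdkn2a between 24 h and 18 h -0.0205 and -0.0175. Without single libraries, ranges that crossed 0 were -0.0804 to 0.208 for Ccne2, -0.147 to 0.156 for Ccnd2 and -0.00285 to 0.189 for Cdkn1b at 18 h, -0.101 to 0.187 for Ccne2 at 24 h, and between 24 h and 18 h -0.192 to 0.0545 for Cdkn1a, -0.182 to 0.181 for Cdkn2a, -0.147 to 0.0994 for Ccne1 and -0.112 to 0.0959 for Ccne2. The cause was not tested. Where a library was left out, the remaining ones at its time point were assumed to vary like the others.

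The 3 libraries per time point limit these results. Cdkn2c rests on 9 to 29 reads per library.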

Other observations

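Cyclins outside the G1 and mitotic groups were listed by gene family after the first results had been seen, and all 14 could be tested. limma called 2 higher and 0 lower at 18 h, against 4.27% and 3.72% of all genes, and 3 higher and 0 lower at 24 h, against 6.52% and 5.11%. The replicate block gave 4 higher and 0 lower at 18 h, against 10.8% and 10.7%, and 5 higher and 1 lower (Ccnk) at 24 h, against 13.6% and 12.5%. Ccno, which encodes cyclin O, known from multiciliated cells, was at 2.45±0.928 FPKM before dox, 5.21±0.560 FPKM after 18 h and 4.51±0.263 FPKM after 24 h (log2 fold-change 1.12, adjusted p = 0.0206 and 0.92, limma adjusted p = 0.0334). Ccnt1, for the cyclin T1 subunit of the elongation factor P-TEFb, was at 8.76±0.284, 10.9±0.863 and 10.7±0.653 FPKM (0.31, adjusted p = 0.0410 and 0.28, limma adjusted p = 0.0448). Ccnjl, a cyclin of little known function, was at 2.15±0.417 FPKM at 0 h and 3.12±0.333 at 24 h (0.53, limma adjusted p = 0.0470). Each of these calls was lost in 5 to 9 of 17 alternatives. The transcriptional cyclins Ccnc, Ccnh and Ccnk were not called without the block, with log2 fold-changes at 24 h of -0.04, 0.06 and -0.18, and Ccnk had a limma adjusted p of 0.0614, or 0.0337 with the block.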
